A study of Mus musculus with 4 samples.

Results

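DNA methylation enzymes and the proteins that direct them were examined in mouse mesenchymal stem cells (MSC). 10 genes were taken by name, and every probe set that the platform annotation paired with exactly 1 of their symbols was kept. That gave 23 probe sets of 10 genes, out of 45037 probe sets that are not array controls. The genes are the methyltransferases Dnmt1, Dnmt3a and Dnmt3b, the cofactor Dnmt3l, the dioxygenases Tet1, Tet2 and Tet3, and Uhrf1, Zfp57 and Trim28.

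MSC grow attached to plastic and can form bone, fat and cartilage in culture. The study compared 2 lines from bone marrow with 2 lines from flushed colon, all from C57BL/6 mice, with no other treatment named. Each line was grown in low-glucose medium, lysed between passage 5 and 10, and measured on 1 Affymetrix mouse array after RNA amplification. The passage of each line, the age and sex of the mice, and whether a line came from 1 mouse or several are not given in the labels, which call the arrays biological replicates.

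In mammals a methyl group is placed on cytosines that precede a guanine. Dnmt3a and Dnmt3b write new marks, with Dnmt3l as a cofactor without catalytic activity of its own that is best known from germ cells and embryonic stem cells. Dnmt1 copies marks to the new strand at replication, and Uhrf1 brings it to half-methylated sites. Tet enzymes oxidise the mark and so begin its removal. Zfp57 binds methylated imprinting control regions and recruits Trim28, the corepressor of KRAB zinc finger proteins.

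Median intensities of the 4 arrays lay between 53.6 and 55.4. An intensity has no fixed unit and is not compared between probe sets. Among MSC surface markers, 11 of 11 genes with a probe set passed the filter described below, but Thy1 was at 32.8 and 22.0 in bone marrow against 4516 and 9032 in colon. Cd34 stood at 7.22 and 22.1 against 2038 and 4278. Pdgfra was at 1609 and 2493 in the bone marrow lines, against 492 and 743 in the colonic ones. Leukocyte markers passed in 5 of 9 genes, with summed intensities of 1104 to 2852 in bone marrow and 1588 to 1652 in colon, and Ptprc lay between 19.3 and 28.6 on all arrays. Of the myeloid genes, Cd14 lay between 573 and 963 and Csf1r between 148 and 324, while Lyz2 had 1589 and 31.7 in bone marrow against 150.1 and 590.5. Intestinal epithelial markers passed in 6 of 9 genes, summing to 5405 to 6526 in bone marrow and 274 to 3051 in colon, with Epcam between 8.97 and 19.6. Most of that sum was Krt19 on every array but colonic replicate 2, with 6223 and 5083 in bone marrow against 1890 and 105. Krt20 stood at 889 on colonic replicate 1 and at most at 29.4 elsewhere, and the stem cell marker Lgr5 at 124 and 73.1 against 12.9 and 9.30. Endothelial markers passed in 3 of 6 genes, summing to 110.0 to 169 and 186 to 246, with Pecam1 between 1.00 and 2.48. Kdr, at 31.9 and 18.5 against 91.1 and 68.9, and Tek, at 32.0 and 15.9 against 43.6 and 42.2, read higher in both colonic lines. The part of such cells in the values below was not tested.

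**Figure D1:**
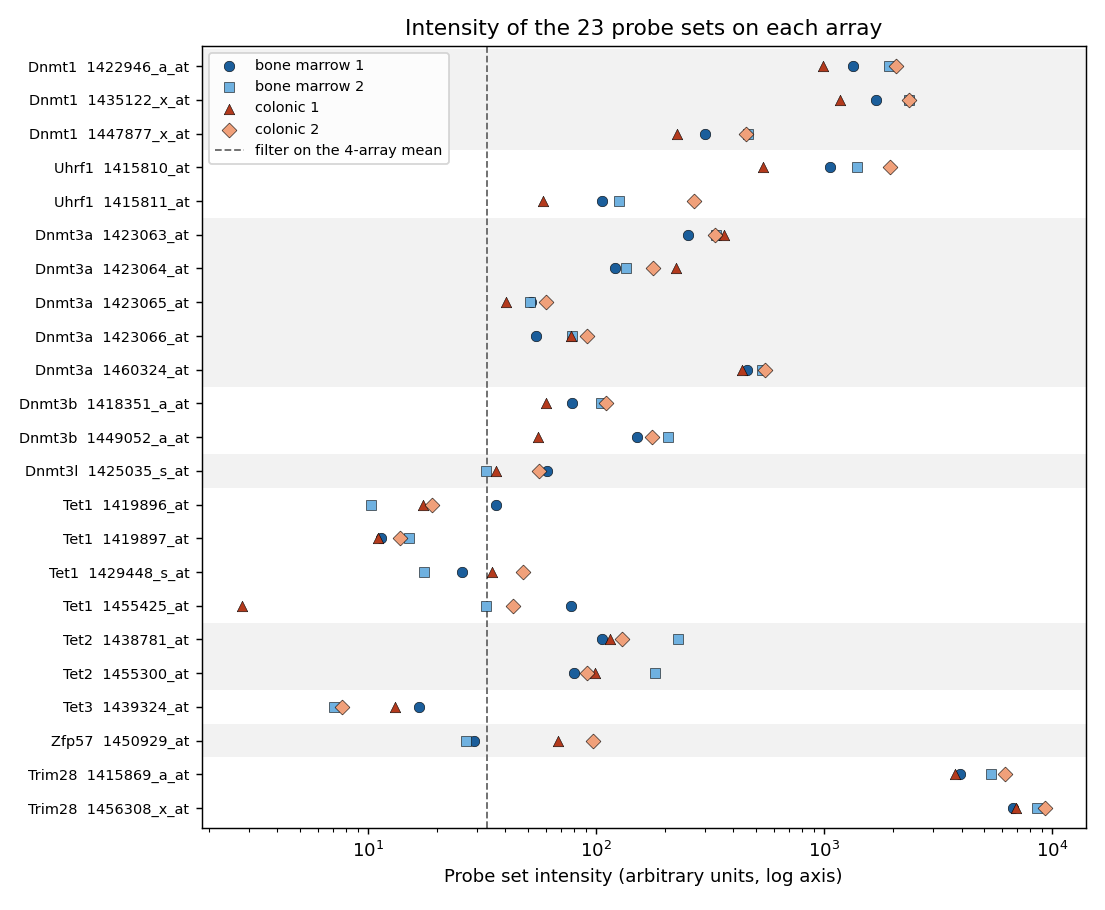
Intensity of each of the 23 member probe sets on each of the 4 arrays, on a log axis in arbitrary units. Each point is 1 array, and the dashed line is the intensity of 33.3 that the mean of the 4 arrays had to exceed to be tested. Zfp57 separates the tissues, whereas Dnmt1 and Uhrf1 have colonic replicate 1 lowest and colonic replicate 2 among the highest arrays.

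The comparison asks whether the transcripts of these enzymes differ between colonic and bone marrow MSC. Zfp57 read higher in both colonic lines, but its bone marrow mean lay below the filter and the difference did not pass the threshold over all probe sets. In every tested probe set other than that of Zfp57 and 1 of Dnmt3a, the lines of a tissue lay further apart than the tissue means. The same held for 78.9% of all probe sets tested. Tet1 and Tet3 were near or below the filter on most arrays.

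A probe set was tested when its 4-array mean was above the 40th percentile of such means, an intensity of 33.3. Of the 23 member probe sets, 19 passed, covering 9 of 10 genes. The 4 that did not pass were 3 probe sets of Tet1 and the only one of Tet3. With limma, 0 of 19 passed an adjusted p of 0.05 (Benjamini-Hochberg), as did 0 of all 27022 probe sets tested, a background of 0%. At an unadjusted p below 0.05, 1 of 19 member probe sets was called, that of Zfp57, against 5.63% of all probe sets tested. The median log2 difference of the 19 was -0.05, and that of all probe sets tested 0.0031. A p above the threshold from 2 lines per tissue does not show that the tissues are alike, and 95% intervals of the log2 differences are given for this reason. They are intervals for single probe sets, not adjusted for the number tested.

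In 17 of 19 member probe sets the lines of 1 tissue were further apart than the tissue means, which held for 78.9% of all probe sets tested. The arrays of the tissues did not overlap in 2 of 19, against a background of 33.4%. Both were higher in colon, and 17.9% of all probe sets tested lay in that direction without overlap. A log2 difference of at least 1 was found in 2 of 19, one in each direction, against 7.66%.

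**Figure D2:**
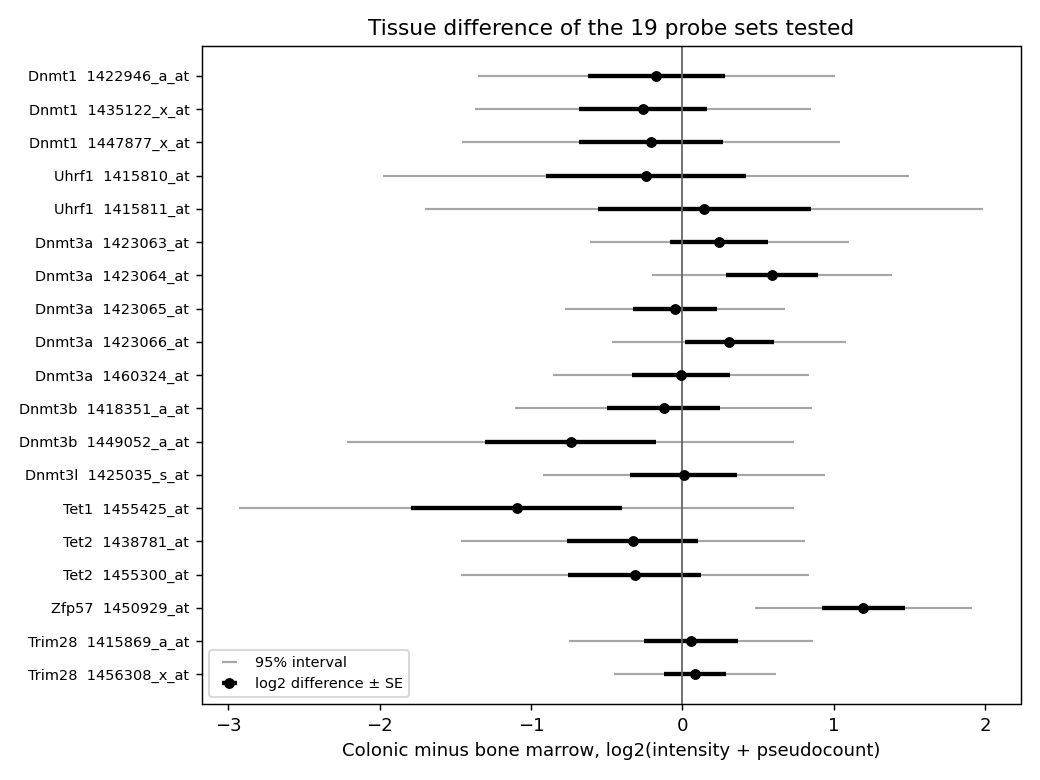
Log2 difference, colonic minus bone marrow, of the 19 member probe sets tested, with limma's standard error (thick bar) and 95% interval (thin bar), from 2 arrays per tissue. Of the 19 intervals, that of Zfp57, from 0.48 to 1.91, does not reach 0. That probe set passed the filter through its colonic values alone.

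Dnmt1, the maintenance methyltransferase, is represented by 3 probe sets that ordered the lines in nearly the same way. Probe set 1422946_a_at had intensities of 1339 and 1930 in bone marrow replicates 1 and 2 and of 986 and 2061 in colonic replicates 1 and 2. Probe set 1435122_x_at had 1689 and 2357 in the bone marrow lines, against 1171 and 2363 in the colonic ones. Probe set 1447877_x_at had 299 and 463 against 227 and 453. The suffix _x marks probe sets with probes that can match other transcripts, so the agreement of all 3 is described and not counted as independent. In each of the 3, colonic replicate 1 was lowest, bone marrow replicate 1 came next, and the other arrays were highest and close together, so the tissues overlapped. For 1435122_x_at the bone marrow mean was 2023 ± 473 (SD, n = 2) and the colonic mean 1767 ± 843 (SD, n = 2). The log2 difference was -0.26 ± 0.42 (SE), with an interval from -1.37 to 0.85 and a limma adjusted p of 0.990. The other probe sets had log2 differences of -0.17 and -0.21. Without colonic replicate 1 the difference of 1435122_x_at was 0.24, and without colonic replicate 2 it was -0.76.

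Uhrf1, the protein that recruits Dnmt1 to freshly copied DNA, was far apart in the colonic lines. Probe set 1415810_at had 1062 and 1387 in the bone marrow lines, against 538 and 1940 in the colonic ones, so that the colonic lines differed 3.60-fold. The second probe set, 1415811_at, had 106 and 126 in the bone marrow lines, against 58.4 and 269 in the colonic ones, a 4.61-fold difference between the colonic lines. In both, the bone marrow lines lay between the colonic lines. The log2 difference between tissues was -0.24 ± 0.66 (SE, interval -1.98 to 1.49) for the first and 0.14 ± 0.70 (SE, interval -1.70 to 1.99) for the second. The direction turned with the colonic line left out. Without colonic replicate 1 the values were 0.67 and 1.13, and without colonic replicate 2 they were -1.15 and -0.84.

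Between the colonic lines, genes of the cell cycle stood in the same order as Dnmt1 and Uhrf1. Of the 19 member probe sets tested, 11 were lowest on colonic replicate 1, against 31.6% of all probe sets. Several of these measure the same gene. With 1 probe set per gene it was 5 of 9 genes, against 28.7%. Dnmt1 and Uhrf1 act at replication forks, so genes of S phase and of mitosis were set beside them. Of 21 S phase and replication genes, 18 were lowest on colonic replicate 1, as were 11 of 11 mitosis genes, against 28.7% of all genes with 1 probe set each. Lists not chosen for the cell cycle varied. Lowest there were 11 of 11 partners of methylation upkeep, 7 of 8 genes of the methyl-CpG reader list and 7 of 11 of active demethylation. It was 6 of 12 genes that act with Trim28 or with heterochromatin, and 2 of 11 of the methionine cycle. Among markers it was 3 of 11 MSC surface, 0 of 5 leukocyte, 0 of 6 intestinal epithelial and 0 of 3 endothelial genes. Colonic replicate 2 exceeded colonic replicate 1 in 21 of 21 S phase genes, and bone marrow replicate 2 exceeded replicate 1 in 10 of 21. For mitosis genes these counts were 11 of 11 and 8 of 11. The share of all genes with these orders within 1 tissue was not counted. All 3 Dnmt1 probe sets were higher in bone marrow replicate 2. The S phase genes lay on average 0.55 below their 4-array mean on the log2 scale in colonic replicate 1 and 0.49 above it in colonic replicate 2. For mitosis genes the values were -1.19 and 0.57. In bone marrow replicates 1 and 2 the S phase genes were at 0.01 and 0.05, and the mitosis genes at 0.16 and 0.46. Mki67, the proliferation antigen, had 3494 and 5309 in the bone marrow lines, against 1657 and 6348 in the colonic ones. Pcna, the sliding clamp to which Dnmt1 binds, had 10502 and 10072 in the bone marrow lines, against 7681 and 12402 in the colonic ones. In whole-culture RNA, fewer cycling cells and less RNA per cell cannot be told apart, and the part of the cell cycle in the Dnmt1 and Uhrf1 values was not tested.

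Between tissues, 0 of 21 S phase genes and 0 of 11 mitosis genes passed the adjusted threshold with limma, with medians of -0.20 and -0.63 against 0.01 over all genes tested. These medians turned to 0.39 and 0.28 without colonic replicate 1, and were -0.66 and -1.46 without colonic replicate 2. At an unadjusted p below 0.05 stood 1 of 21 and 0 of 11, against 6.56% of all genes. That gene was Ccne1, cyclin E1, at 935 and 752 in the bone marrow lines, against 2010 and 2192 in the colonic ones, a log2 difference of 1.31 ± 0.27 (SE). Among the S phase genes nearest to it by p were Tyms, thymidylate synthase, with 0.92 ± 0.48 (SE), and the other cyclin E gene Ccne2, with 0.45 ± 0.27 (SE). The Tyms probe set read 40.52 and 86.85 in the bone marrow lines, against 89.42 and 175.63 in the colonic ones. Among mitosis genes Kif11, a spindle motor, had a log2 difference of -1.21 ± 0.76 (SE), and Ccna2 and Cenpe had -0.76 and -0.66.

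**Figure D3:**
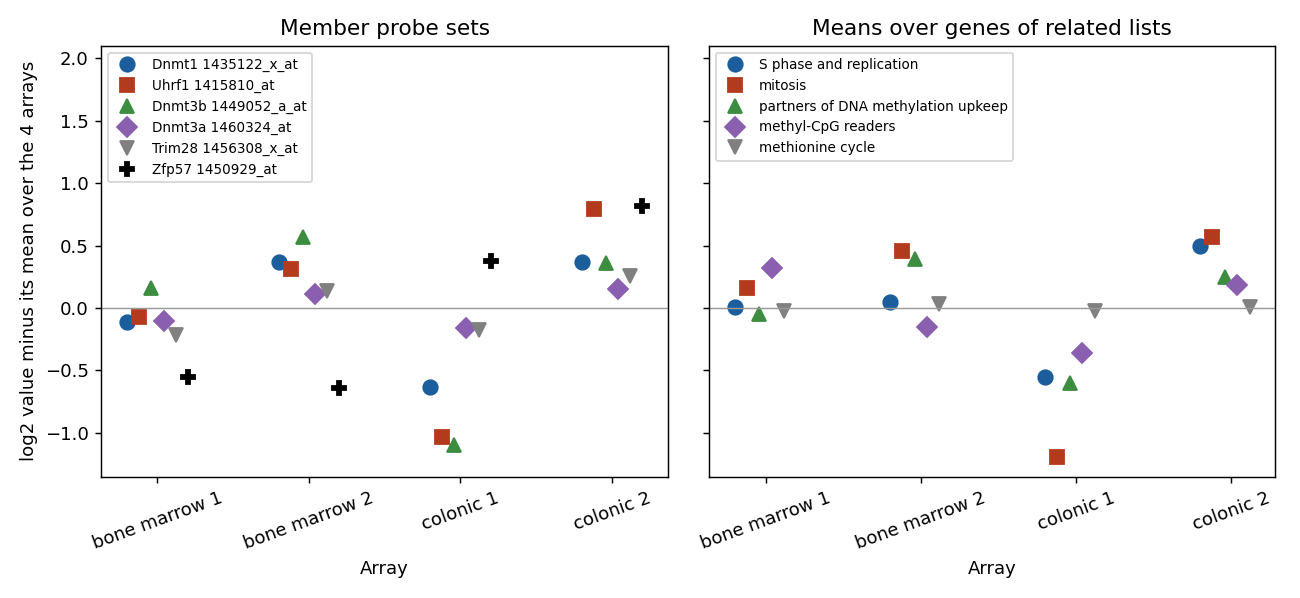
Left, 6 member probe sets on each array, as the log2 value minus its mean over the 4 arrays. Right, the same for the mean over the tested genes of 5 related lists. Points are shifted sideways for legibility. Dnmt1, Uhrf1 and Dnmt3b are lowest in colonic replicate 1, as are the S phase and mitosis means, at -0.55 and -1.19, while Zfp57 is above its mean in both colonic lines.

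Promoter windows of the members were searched for the letters to which E2F factors, regulators of S phase genes, bind. Windows of 250 bases before to 50 bases after an annotated start came from RefSeq (build GRCm38.p6) and were found for 10 of 10 members, 19 windows in all. The letters searched, on both strands, were TTTCCCGC, TTTCGCGC, TTTGCCGC and TTTGGCGC. They occurred in 2 of 19 member windows, one of Dnmt1 and one of Uhrf1, and in 2.26% of all 32851 windows. Of 17 S phase genes with a window, 8 had a match (47.1%), against 2.61% of all genes. The matches of the members, and for comparison that of Cdc6, the first by name among the S phase genes with a match, are shown 5′ to 3′ on the strand of the gene, with the match in capitals.
Dnmt1, chr9:20952824-20952853, minus strand: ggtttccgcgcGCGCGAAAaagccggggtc
Dnmt1, chr9:20952574-20952603, minus strand: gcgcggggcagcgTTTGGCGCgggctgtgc
Uhrf1, chr17:56304117-56304146, plus strand: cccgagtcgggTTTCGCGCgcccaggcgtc
Cdc6, chr11:98908002-98908031, plus strand: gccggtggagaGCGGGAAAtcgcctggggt
Uhrf1 and the first Dnmt1 stretch hold the same 8 letters, read on opposite strands. A match describes the sequence and is no evidence of binding in these cells, and windows without one say nothing about the factor.

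Dnmt3a, a de novo methyltransferase, had 5 probe sets. One of them, 1460324_at, had 458 and 531 in the bone marrow lines, against 438 and 549 in the colonic ones. The means were 495 ± 51.9 and 493 ± 78.8 (SD, n = 2). The log2 difference was -0.0089, with an interval from -0.85 to 0.84. Here the lines of each tissue covered the same range. Probe set 1423064_at differed from that, with 121 and 136 in the bone marrow lines, against 225 and 178 in the colonic ones, so that both colonic lines were higher. Its log2 difference was 0.59 ± 0.30 (SE, interval -0.20 to 1.39), with an unadjusted p of 0.111 and a limma adjusted p of 0.979. Its remaining probe sets had log2 differences of 0.24, -0.05 and 0.31, and their tissues overlapped. The probe sets of Dnmt3a thus did not show 1 direction.

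Dnmt3b, the other de novo enzyme, was lowest in colonic replicate 1. Probe set 1449052_a_at had 152 and 206 in the bone marrow lines, against 55.4 and 175 in the colonic ones. Its log2 difference was -0.74 ± 0.56 (SE, interval -2.21 to 0.74). Without colonic replicate 1 this became -0.01, and without colonic replicate 2 it was -1.46, so the size of the difference rests on colonic replicate 1. Probe set 1418351_a_at had 78.4 and 105 against 60.2 and 111, with a log2 difference of -0.12 ± 0.37 (SE). In both probe sets the arrays of the tissues overlapped.

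Dnmt3l, the inactive cofactor, was measured by 1 probe set close to the filter. It had 60.8 and 32.7 in the bone marrow lines, against 36.5 and 55.9 in the colonic ones. The tissues overlapped completely, and the log2 difference was 0.0075 ± 0.35 (SE), with an interval from -0.92 to 0.94. Its sign turned with the scaling of the arrays.

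Tet2 had 2 probe sets, in which a bone marrow line stood apart. Probe set 1438781_at had 106 and 227 in the bone marrow lines, against 114 and 129 in the colonic ones, and probe set 1455300_at had 79.8 and 182 against 99.2 and 91.0. In both, bone marrow replicate 2 was highest and the rest of the arrays were close together. The log2 differences were -0.33 ± 0.43 and -0.31 ± 0.44 (SE). Without bone marrow replicate 2 they were 0.18 and 0.22.

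The 4 probe sets of Tet1 did not give 1 picture. Probe set 1455425_at passed the filter through bone marrow, with 77.8 and 32.9 against 2.80 and 43.1 in colon. Its log2 difference of -1.09 ± 0.70 (SE, interval -2.93 to 0.74) was -0.20 without colonic replicate 1 and -1.99 without colonic replicate 2. Probe set 1429448_s_at was higher in colon, with 25.8 and 17.6 in the bone marrow lines, against 34.8 and 47.8 in the colonic ones. It was below the filter, and with all probe sets tested its log2 difference was 0.64 ± 0.26 (SE, unadjusted p = 0.0606, limma adjusted p = 0.927). The others, 1419896_at and 1419897_at, lay between 10.3 and 36.3 and between 11.0 and 15.0. Tet3 was at 16.7 and 7.08 in the bone marrow lines, against 13.1 and 7.67 in the colonic ones in its 1 probe set, where no order of the tissues can be read.

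Zfp57, the zinc finger protein that guards imprints, had the lowest p of the members. Its 1 probe set, 1450929_at, had 29.2 and 26.7 in the bone marrow lines and 68.3 and 97.1 in the colonic lines. Both colonic lines were above both bone marrow lines, and the lines within each tissue were closer to each other than the tissues were. The means were 28.0 ± 1.73 (SD, n = 2) and 82.7 ± 20.4 (SD, n = 2). The log2 difference was 1.19 ± 0.27 (SE, interval 0.48 to 1.91), with an unadjusted p of 0.0084 and a limma adjusted p of 0.553. That p ranked 409th of 27022, and the adjusted value does not set Zfp57 apart. The bone marrow mean lay below the filter, so the probe set was tested only because of its colonic values. The difference lay between 0.98 and 1.41 with any 1 array left out. Its sign could not turn there, because the arrays of the tissues do not overlap.

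Trim28, the corepressor that Zfp57 recruits, was bright in all lines. Probe set 1456308_x_at had 6702 and 8554 in the bone marrow lines, against 6913 and 9325 in the colonic ones, and 1415869_a_at had 3951 and 5407 against 3734 and 6183. In each tissue replicate 2 exceeded replicate 1, by 1.28-fold and 1.35-fold in the first probe set. Replicate 2 exceeded replicate 1 in both tissues in 12 of 19 member probe sets, against 28.4% of all probe sets tested. With 1 probe set per gene it was 6 of 9 members, against 24.9% of all genes. The log2 differences of Trim28 between tissues were 0.08 ± 0.20 and 0.06 ± 0.31 (SE), with intervals from -0.45 to 0.62 and from -0.75 to 0.86. Bone marrow replicate 1 and colonic replicate 1 thus lay closer to each other than to the other line of their own tissue.

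The partners of these enzymes were taken from fixed lists, with 1 probe set per gene. Of 12 genes that act with Trim28 or with heterochromatin, 12 were tested. With limma 0 passed the adjusted threshold and 0 had an unadjusted p below 0.05, against 0% and 6.56% of all genes. The median log2 difference of the 12 was -0.26, and -0.07 without colonic replicate 1. Cbx5, heterochromatin protein 1 alpha, had 3324 and 2740 in the bone marrow lines, against 1687 and 2690 in the colonic ones. Cbx3 and the insulator protein gene Ctcf had log2 differences of -0.37 ± 0.25 and -0.39 ± 0.29 (SE). The Cbx3 probe set lay between 52.97 and 77.29 on the 4 arrays. In 3 of 12 the arrays of the tissues did not overlap, against 33.7% of genes. All 3 were lower in colon, and 15.1% of genes lay in that direction without overlap.

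Partners of methylation upkeep were tested in 11 of 12 genes, with 0 past the adjusted threshold (limma). An unadjusted p below 0.05 (limma) was found in 0 of 11, against 6.56% of all genes. The median of the list was -0.24, and it was 0.08 without colonic replicate 1 and -0.53 without colonic replicate 2. All 11 were lowest on colonic replicate 1, against 28.7% of genes. Hells, a chromatin remodeller needed for DNA methylation, had 1613 and 3084 in the bone marrow lines, against 765 and 2367 in the colonic ones. Uhrf2, the paralog of Uhrf1, had 3281 and 4760 against 1760 and 3269, and Nsd1, a histone methyltransferase whose mark recruits Dnmt3a, had 1127 and 1388 against 807 and 884. The log2 differences of Uhrf2 and Nsd1 were -0.72 ± 0.38 and -0.56 ± 0.29 (SE), and in both genes the colonic lines were below the bone marrow lines. The arrays did not overlap in these 2 of 11 genes, against 33.7% of genes, and 15.1% of genes lay in that direction.

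Of the list named methyl-CpG readers, 8 genes of the Mbd and Zbtb families were tested, and 0 passed the adjusted threshold with limma. Whether each of them binds the mark was not examined. At an unadjusted p below 0.05 stood 1 of 8, against 6.56% of all genes. That was Mbd6, with 1539 and 1078 in the bone marrow lines, against 362 and 652 in the colonic ones, a log2 difference of -1.38 ± 0.42 (SE, limma adjusted p = 0.774). Zbtb4 and Mbd1 had 1.01 ± 0.68 and -0.39 ± 0.32 (SE), and the median of the list was -0.11. It was 0.22 without colonic replicate 1 and -0.42 without colonic replicate 2. Genes of active demethylation and repair were tested in 11 cases, with 0 past the adjusted threshold (limma). An unadjusted p below 0.05 (limma) was found in 0 of 11, against the same 6.56%. The median of that list was -0.22. It moved to -0.10 with colonic replicate 1 left out and to -0.11 with bone marrow replicate 1 left out. Apobec1, a cytidine deaminase, had 424 and 267 against 176 and 205. Ogt, the glycosyltransferase that binds Tet proteins, and Apex1, a repair endonuclease, had -0.60 ± 0.33 and -0.22 ± 0.13 (SE). In 3 of 8 genes of the reader list and 4 of 11 of active demethylation the arrays of the tissues did not overlap. All of these were lower in colon, against 15.1% of genes in that direction and 33.7% in either.

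Genes of the methionine cycle, which supplies the methyl donor, had 11 tested members. With limma 0 passed the adjusted threshold and 0 had an unadjusted p below 0.05, against 0% and 6.56% of all genes. The mean of the 11 genes per array lay between -0.02 and 0.03 from the 4-array mean on the log2 scale. On colonic replicate 1, 2 of 11 were lowest, against 28.7% of all genes. Ahcyl1, a relative of the enzyme that clears the inhibitory by-product of methylation, had a log2 difference of -0.51 ± 0.23 (SE). Shmt2, which feeds the folate cycle, had -0.63 ± 0.36 and Nnmt, which consumes the methyl donor, 0.55 ± 0.48 (SE).

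Most of the listed germline genes that promoter methylation is known to silence in body cells did not pass the filter. Of 15 with a probe set, 11 did not pass the filter, among them Dazl, at 12.3 to 17.2, and Ddx4, at 8.17 to 15.2. None of the other 4 passed the adjusted threshold with limma, and 1 of 4 had an unadjusted p below 0.05, against 6.56% of all genes. That was Rhox5, a homeobox gene of the X chromosome, at 11.8 and 11.1 in the bone marrow lines, against 32.6 and 81.5 in the colonic ones, with a log2 difference of 1.40 ± 0.40 (SE, limma adjusted p = 0.713). Rhox5 too was tested only because of its colonic values. Taf7l had 40.1 and 41.0 against 74.1 and 63.3, and Brdt 239 and 79.2 against 80.5 and 124.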

How the data were processed

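The authors deposited 1 intensity per probe set and array, taken here as linear from the range of the values. Per the labels' protocols, RNA was amplified and biotin-labelled. Probe summary, background correction, scaling and genome build are steps not given in the sources used here. Having 2 arrays per tissue limits the precision.

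Values were taken as log2(intensity + 13.7), 0.25 of the table median of 54.6, and a log2 difference therefore understates the change of dim probe sets. Each of 27022 probe sets above the filter was tested with limma 3.58.1 in R 4.3.3 (lmFit, eBayes with intensity trend, tissue as the only term, 2 residual and 2.69 prior degrees of freedom). An exact permutation test of 2 against 2 arrays cannot give a p below 0.333. The procedure was tested on simulated data. Standard deviations are of the 2 intensities of a tissue. For lists the brightest probe set stood for a gene, and 11 of 171 list genes had no probe set of their own symbol. All member probe sets were named, with up to 3 genes per list by p. Mki67, Pcna, Dazl, Ddx4, Ptprc, Lyz2, Epcam, Pecam1, Pou5f1 and Nanog were named beyond that rule after their values were seen, as were the E2F letters and the counts of probe sets by lowest array and by replicate order. Members and lists were chosen with earlier results of these data known. Alternatives were other scalings, pseudocounts, filters, gene-level tests, variance models, the replicate number as a block, a threshold of 0.1, and leaving out each array in turn.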

Additional observations from a re-analysis of the deposited data

How the results depend on the processing

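No member probe set passed the adjusted threshold under any of 16 alternatives, including the fit with the replicate number as a block, which called 0 probe sets in all. In the labels, same-numbered arrays share only a number, and whether they were handled together is not stated. Over the probe sets tested their deviations correlated with r = 0.14, and 2 pairs are too few to show pairing. The count of all probe sets called, 0, was 12 with a filter at the 60th percentile and 54 at an adjusted p of 0.1, and with 1 array left out between 0 and 100. It was 72 without colonic replicate 1 and 100 without colonic replicate 2, where the single colonic array is given the spread of the bone marrow pair. The difference of Dnmt3l, 0.0075, was -0.0041 with quantile normalization, -0.012 with median centring and -0.00068 with a pseudocount of the table median. A sign can turn on leaving out an array only where the arrays of the tissues overlap. How many of all probe sets turned was not counted. With 1 array left out, 13 of 19 member probe sets turned sign. The log2 differences then ranged from -0.70 to 0.36, -0.76 to 0.24 and -0.68 to 0.27 in Dnmt1, -1.15 to 0.67 and -0.84 to 1.13 in Uhrf1, -0.28 to 0.18 and -0.17 to 0.15 in 1423065_at and 1460324_at of Dnmt3a, and -0.50 to 0.25 in 1418351_a_at of Dnmt3b. They ranged from -0.33 to 0.35 in Dnmt3l, -0.83 to 0.18 and -0.85 to 0.22 in Tet2, and -0.31 to 0.42 and -0.13 to 0.30 in Trim28. Zfp57 had differences from 0.73 with a pseudocount of the table median to 1.51 with a pseudocount of 1. A pseudocount could not turn its sign, because its arrays do not overlap between tissues. It did not pass a filter at the 60th percentile and was not tested there. The cause of these changes was not tested beyond the arrays and probe sets left out.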

Other observations

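Pluripotency and early germline markers, which accompany Dnmt3l and Tet1 in embryonic stem cells, passed the filter in 4 of 12 genes. With limma 0 passed the adjusted threshold and 0 had an unadjusted p below 0.05, against 0% and 6.56% of all genes. In 3 of 4 the arrays of the tissues did not overlap. All 3 were lower in colon, against 15.1% of genes in that direction and 33.7% in either. Pou5f1 lay between 1.03 and 8.48 and Nanog between 12.1 and 24.3 on the 4 arrays. Klf4, which stromal cells also express, was at 4322 and 2998 in the bone marrow lines, against 2633 and 2080 in the colonic ones, a log2 difference of -0.62 ± 0.27 (SE). Dppa5a and Esrrb had log2 differences of -0.23 ± 0.28 and -0.16 ± 0.33 (SE).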
